A study of Mus musculus with 8 samples.

Results

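The 35 genes described here are regulators of the plasma cell fate and genes of protein folding, export, degradation and stress signalling in the endoplasmic reticulum (ER). The list names them by role and sets no rule on their measured values, but it was drawn up with earlier results of these data known. All 35 were measured among the 19937 genes that the platform annotation names alone on a probe set. A gene with several probe sets was represented by the one with the highest mean over the arrays. The study compared splenic B cells of adult mice carrying human HGAL, a germinal centre adaptor protein also called GCET2, with those of their wild-type littermates. Total RNA of cells sorted for both CD22 and B220 from spleens of the CBAxC57BL/6J background was hybridised to GeneChip Mouse Gene 1.0 ST arrays, with 4 arrays from wild-type mice (Control) and 4 from mice expressing HGAL under the Sca1 (Ly-6E.1) promoter (Sca1-HGAL). The labels describe the second genotype both as a knock-in and as a transgenic. They state no treatment, exact age, sex or number of founder lines. Since they tie no array to a mouse of its own, p-values measure only the spread between arrays, and part of it may be technical.

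Plasma cells are antibody-secreting cells that form from activated B cells. Prdm1 (Blimp-1), Irf4 and Xbp1 drive this change, and the ER grows with its chaperones, disulfide isomerases and degradation machinery. The unfolded protein response keeps this compartment in balance through the sensors Ern1 (IRE1), Atf6 and Eif2ak3 (PERK). Activated Ern1 splices the Xbp1 transcript, cleaved Atf6 enters the nucleus, and Eif2ak3 signalling raises translation of Atf4, which acts on Ddit3 (CHOP). Plasma cells carry less CD22 and B220 than resting B cells, so a sort on both markers is aimed at B cells rather than at mature plasma cells.

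Several of these genes share a short regulatory sequence in front of the gene, shown here because it ties the chaperones to Atf6 and Xbp1. The ER stress response element (ERSE) is CCAAT, the letters bound by the factor NF-Y, then 9 free bases, then CCACG, the site of Atf6 or Xbp1. RefSeq promoter windows (GRCm38.p6, 250 bases before to 50 after a gene start) matched 30 of the 35 members, with Atf6, Sec11c, Hyou1, Derl1 and Manf unmatched. Searched on both strands, the ERSE lay in the windows of 8 of these 30 members, 26.7%, and in 37 of all 27025 gene symbols with a window, 0.137%. Of all 32851 windows, 0.119% held it. The shorter ERSE-II, ATTGG and CCACG parted by 1 free base, lay in 2 members and in 0.0444% of all gene symbols with a window. No elements overlapped. The elements are written 5′ to 3′ on the strand that reads CCAAT or ATTGG first, with the fixed letters in capitals and the free spacer in lower case. Hsp90b1 held the ERSE at 2 positions.

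Hspa5 (ERSE): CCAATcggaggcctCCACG
Hsp90b1 (ERSE): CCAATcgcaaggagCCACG
Hsp90b1 (ERSE): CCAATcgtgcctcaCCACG
Dnajc3 (ERSE): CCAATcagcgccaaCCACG
Calr (ERSE): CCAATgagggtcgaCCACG
Canx (ERSE): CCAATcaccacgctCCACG
Creld2 (ERSE): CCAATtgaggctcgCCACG
Pdia6 (ERSE): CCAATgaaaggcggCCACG
Derl3 (ERSE): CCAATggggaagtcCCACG
Dnajb11 (ERSE-II): ATTGGcCCACG
Herpud1 (ERSE-II): ATTGGgCCACG

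The ERSE of Hspa5 was the one nearest to the gene start, from base -65 to -47, and the farthest was one of Hsp90b1, from -212 to -194. The ERSE ran on the gene's own strand at 5 of the 9 positions. The ERSE-II of Dnajb11 lay just after the annotated start, from base 8 to 18. These are matches of letters, not measured binding.

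**Figure D1:**
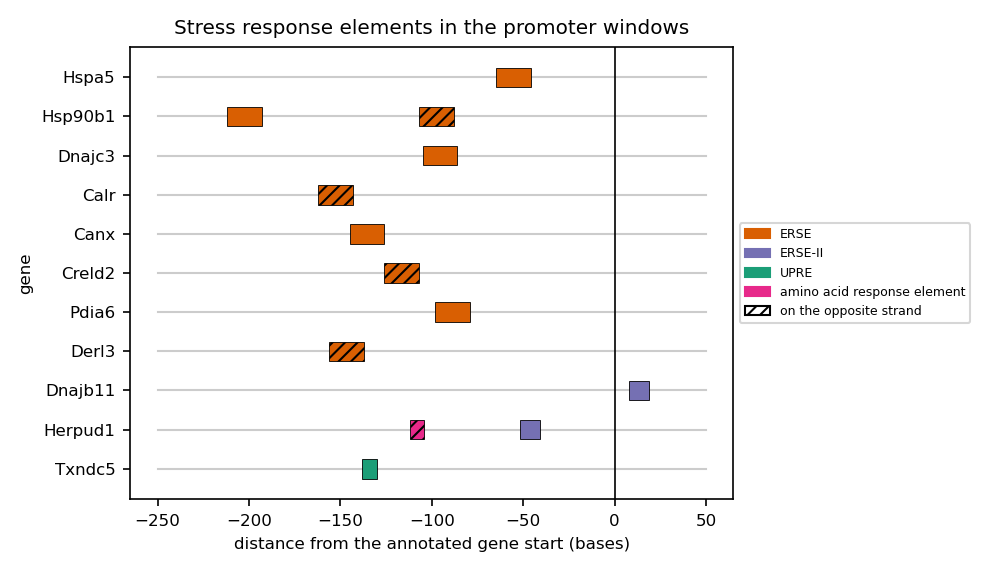
Positions of the matched elements (boxes, coloured by element, hatched where the element reads on the opposite strand) in the promoter windows of 11 members, in bases from the annotated gene start. The ERSE of 8 members lies upstream of the start, from base -212 to -47.

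Whole windows are printed for 3 members. Hspa5 encodes BiP, the main ER chaperone. Creld2 is the ERSE gene with the largest size of difference between the groups. Txndc5 has the largest of all members and holds the 8-letter element UPRE, TGACGTGG, to which Xbp1 binds. UPRE lay in 1 of the 30 members and in 0.714% of all gene symbols with a window. Txndc5 had 3 windows, of which 1 held it. Capitals mark the fixed letters of the element, as read on the strand of the gene. The window of Hspa5 is chr2:34771840-34772139 on the plus strand, that of Creld2 chr15:88819396-88819695 on the plus strand, and that of Txndc5 chr13:38527865-38528164 on the minus strand.

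Hspa5 promoter: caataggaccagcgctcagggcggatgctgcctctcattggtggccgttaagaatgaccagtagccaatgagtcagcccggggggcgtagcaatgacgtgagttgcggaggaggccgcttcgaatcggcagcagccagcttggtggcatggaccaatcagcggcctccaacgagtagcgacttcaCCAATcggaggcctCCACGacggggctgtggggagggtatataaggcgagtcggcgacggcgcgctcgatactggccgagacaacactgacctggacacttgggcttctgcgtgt
Creld2 promoter: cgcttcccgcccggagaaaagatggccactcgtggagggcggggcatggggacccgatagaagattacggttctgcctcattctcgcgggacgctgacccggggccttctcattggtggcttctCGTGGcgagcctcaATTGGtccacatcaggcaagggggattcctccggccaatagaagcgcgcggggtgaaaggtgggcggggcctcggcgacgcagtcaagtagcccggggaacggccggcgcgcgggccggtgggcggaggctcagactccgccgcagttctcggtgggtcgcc
Txndc5 promoter: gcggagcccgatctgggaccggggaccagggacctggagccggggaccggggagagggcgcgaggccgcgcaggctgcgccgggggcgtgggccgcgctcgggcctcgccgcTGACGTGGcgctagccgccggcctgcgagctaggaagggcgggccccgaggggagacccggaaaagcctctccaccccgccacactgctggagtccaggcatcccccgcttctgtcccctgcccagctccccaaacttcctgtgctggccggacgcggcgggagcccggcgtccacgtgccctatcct

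Levels are log2 intensities and differences are log2 folds, Sca1-HGAL minus Control, with the standard error (SE) of the limma fit. Levels of different genes rest on different probes and are not compared. The median intensity of an array over all rows ranged from 145.2 to 151.4. With 4 arrays a group, their number sets the precision. The 5 B-cell markers measured of 6 listed, Cd79a, Cd79b, Ms4a1, Cd22 and Ptprc (B220), had means from log2 12.68 to 13.76. Their summed intensity was lower with no overlap in Sca1-HGAL arrays, 45814 to 46607 against 47299 to 48337 in Control. Of the 5, 4 had negative log2 folds, and they ran from -0.115 for Cd79a to 0.036 for Cd22. Cd79a alone was separated between the groups, where 2.3% of all probe sets were separated downward. None of the 5 had an unadjusted limma p under 0.05, and the part of this in the members' values was not tested. Control replicates 2 and 4 had Xist levels of 12.17 and 12.18, against 5.28 to 5.65 on the other 6 arrays, and low levels of the Y-linked gene Eif2s3y, 4.22 and 3.96 against 10.21 to 10.61. By these genes, Control replicates 2 and 4 read as female and the other 6 arrays as male. The sexes are thus not balanced between the groups, and the Control arrays come from more than 1 mouse. The counts of members are therefore also given without Control replicates 2 and 4. In sorted bulk RNA, fewer cells of a type and less RNA per cell cannot be told apart.

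None of the 35 members passed limma at an adjusted p under 0.05, and the groups were close for most of them. Their median log2 fold was -0.004, against 0.015 over all 21640 probe sets tested, with 17 members positive and 18 negative. For 28 members the log2 fold was under 0.2 in size, 80.0% of them against 89.3% of all probe sets. Over all probe sets, 0.00462% passed the adjusted threshold, which is the 1 probe set of 21640. At an unadjusted limma p under 0.05, 2 members were on the higher side, Txndc5 and Ssr1, and 2 on the lower side, Sdc1 and Sec61b. These are 5.71% each, where all probe sets gave 5.53% higher and 4.06% lower. Sec61b counts here by its brightest probe set alone, and its other probe sets had -0.02 and 0.08. The 4 Sca1-HGAL arrays lay above all Control arrays for 1 member and below them for 0, where 3.15% of all probe sets were separated upward and 2.3% downward. These shares are near the background. Without Control replicates 2 and 4, again 0 members passed the adjusted threshold and the same 4 members had an unadjusted p under 0.05.

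**Figure D2:**
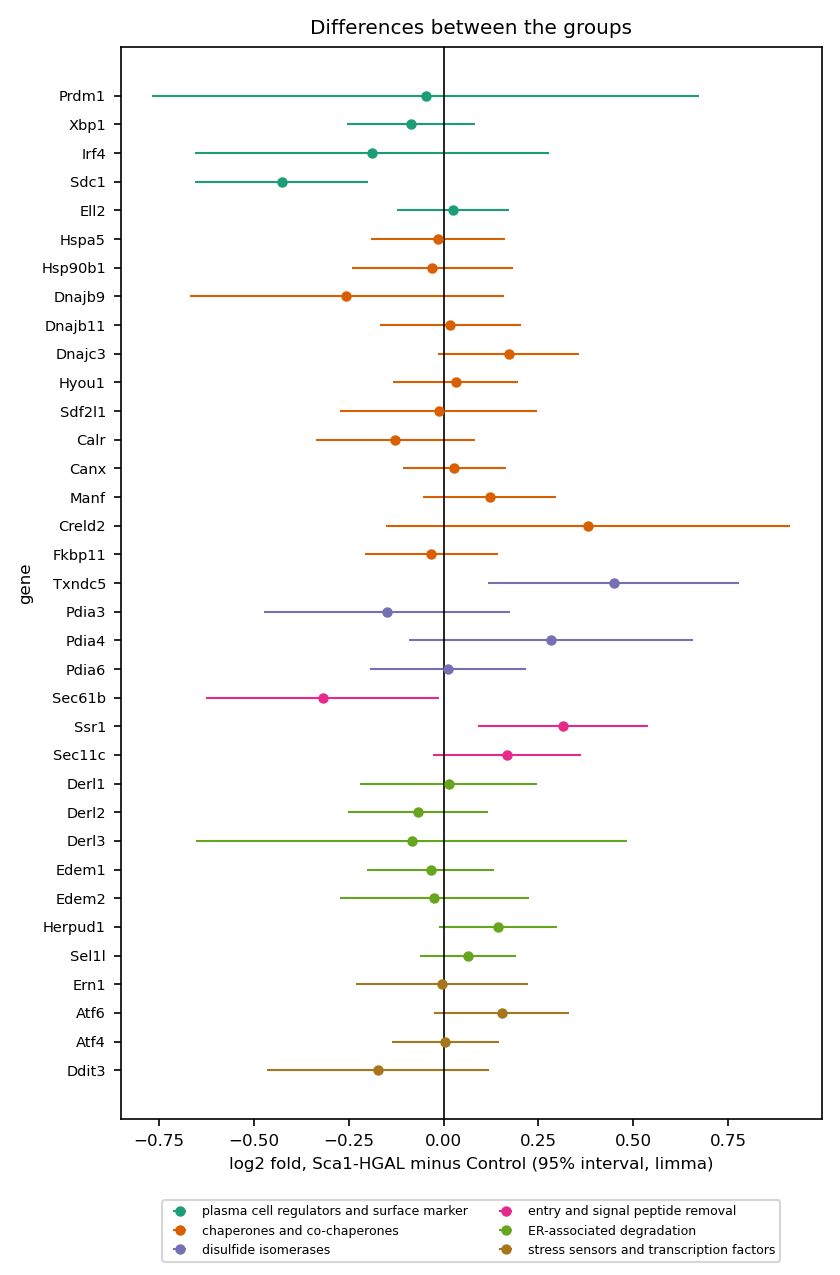
Log2 fold of each member (points, Sca1-HGAL minus Control) with its 95% interval from limma (bars), coloured by role, 4 arrays in each group. A member with several probe sets is shown by the brightest. The intervals of Sdc1 and Sec61b lie below 0 and those of Txndc5 and Ssr1 above it, and the intervals of Prdm1, Creld2 and Derl3 are the widest.

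With all 8 arrays, the regulators of the plasma cell fate did not differ beyond the spread of the arrays. The surface marker Sdc1 (CD138, syndecan-1) had the smallest p of the 35 members. Prdm1, the repressor that shuts down the B-cell programme, was at 7.54, 7.72, 7.94 and 7.65 in Control replicates 1 to 4 and at 8.84, 7.33, 7.03 and 7.46 in Sca1-HGAL replicates 1 to 4. Replicate 1 of Sca1-HGAL was thus the highest of all 8 arrays and the other 3 were the lowest. The log2 fold of Prdm1 was -0.05 (SE 0.32; adjusted p = 0.984 in limma), with a 95% interval from -0.77 to 0.67. Without Sca1-HGAL replicate 1 it was -0.44 (unadjusted p = 0.00565 in limma), with separated groups. In that fit 0 members passed the adjusted threshold. The separated members were Prdm1, Xbp1, Ssr1 and Edem1, 11.4% against 11.8% of all probe sets.

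Xbp1, the factor of the secretory programme, was at 10.60, 10.64, 10.71 and 10.59 in Control arrays and at 10.69, 10.36, 10.56 and 10.58 in Sca1-HGAL arrays. The groups overlapped, with a log2 fold of -0.09 (SE 0.08; adjusted p = 0.777 in limma) that moved between -0.13 and -0.02 when single arrays were left out. The value is of the whole gene, and splicing of Xbp1 was not read here. Irf4 was at 11.56, 11.21, 11.39 and 11.13 in Control and at 11.02, 10.55, 11.72 and 11.24 in Sca1-HGAL arrays, so the latter held both the highest and the lowest value. Its log2 fold was -0.19 (SE 0.21; adjusted p = 0.824 in limma). Ell2, an elongation factor used in the switch to secreted antibody, had 0.03 (SE 0.07; adjusted p = 0.943 in limma).

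Sdc1 was at 7.37, 7.77, 7.70 and 7.63 in Control and at 7.17, 7.37, 7.20 and 7.02 in Sca1-HGAL arrays. All Sca1-HGAL values lay below Control replicates 2 to 4, and Sca1-HGAL replicate 2 was level with Control replicate 1. The means were 7.62 ± 0.18 (SD, n = 4) and 7.19 ± 0.15 (SD, n = 4). The log2 fold of Sdc1 was -0.43 (SE 0.10; adjusted p = 0.217 in limma). Leaving out single arrays moved the log2 fold between -0.51 and -0.37. On the array where Prdm1 was highest, Sdc1 was at 7.17, among the 3 lowest of the 8 arrays.

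**Figure D3:**
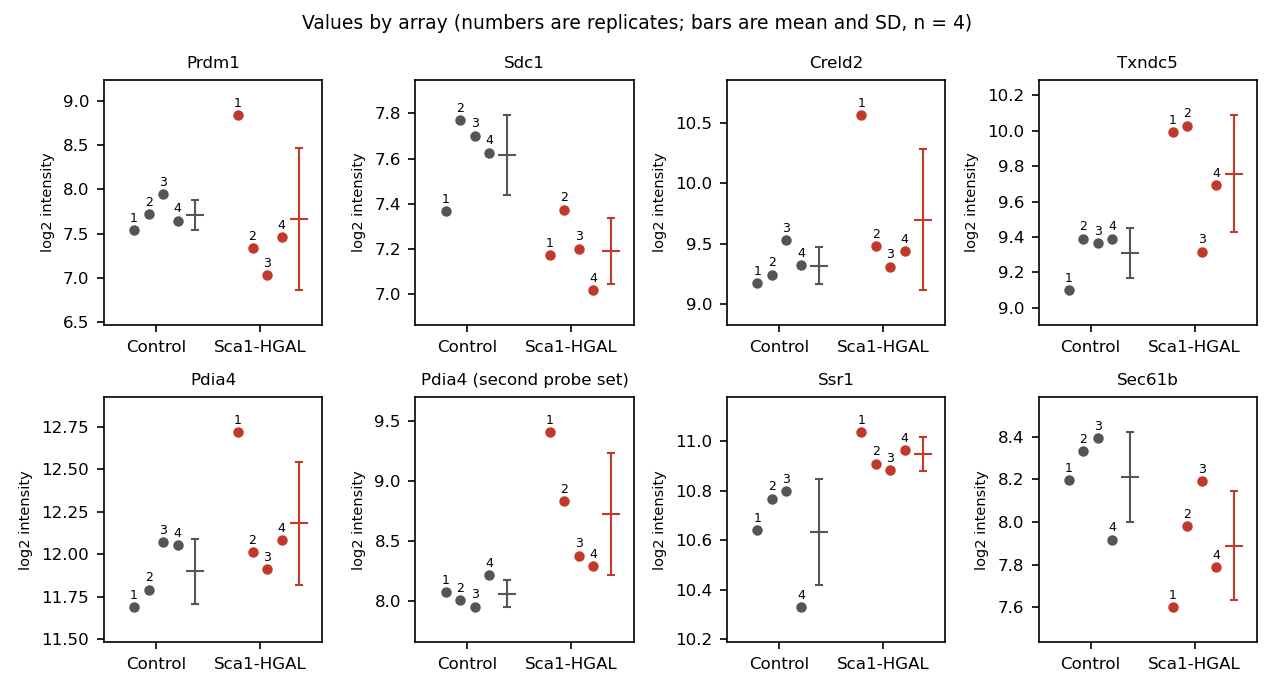
Log2 intensity by array for Prdm1, Sdc1, Creld2, Txndc5, both probe sets of Pdia4, Ssr1 and Sec61b (points numbered by replicate; bars are the mean and SD of 4 arrays). Sca1-HGAL replicate 1 stands above the other arrays for Prdm1, Creld2 and Pdia4, and Ssr1 is separated between the groups.

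Among the stress sensors and their transcription factors, no difference was detected. Ern1, the sensor that splices Xbp1, was at 8.04, 8.20, 8.22 and 7.98 in Control and at 8.36, 8.15, 7.92 and 8.0 in Sca1-HGAL arrays. Its log2 fold of -0.004 (SE 0.10; adjusted p = 0.997 in limma) was the smallest in size of the members, with a 95% interval from -0.23 to 0.22. Atf4, the factor translated under stress, was at 9.08, 9.09, 8.99 and 9.05 in Control and at 9.16, 8.96, 9.10 and 8.997 in Sca1-HGAL arrays. Both genes had fully overlapping groups. The log2 fold of Atf4 was 0.005 (SE 0.06; adjusted p = 0.993 in limma), and its 95% interval from -0.14 to 0.15 is among the narrowest of the members.

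Atf6, the sensor that is cut to release a transcription factor, was at 10.72, 10.76, 10.69 and 10.68 in Control and at 11.01, 10.98, 10.70 and 10.77 in Sca1-HGAL arrays. Replicates 1 and 2 of Sca1-HGAL were higher than every Control array, replicate 4 exceeded Control replicate 2 by under 0.1, and replicate 3 lay within the Control range. The log2 fold was 0.15 (SE 0.08; adjusted p = 0.580 in limma). Ddit3, which encodes the stress and death factor CHOP, was at 8.70, 8.40, 8.55 and 8.40 in Control and at 8.22, 8.04, 8.69 and 8.41 in Sca1-HGAL arrays. Replicates 1 and 2 were here the lowest of the 8, opposite to their place for Atf6. The log2 fold of Ddit3 was -0.17 (SE 0.13; adjusted p = 0.728 in limma).

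The 12 chaperones and their helpers had a median log2 fold of 0.002, with 6 positive and 6 negative, and none had an unadjusted limma p under 0.05. Hspa5 (BiP), which binds unfolded chains and holds the stress sensors inactive, was at 11.79, 11.69, 11.72 and 11.74 in Control and at 11.69, 11.51, 11.84 and 11.84 in Sca1-HGAL arrays. Its groups overlapped, with a log2 fold of -0.01 (SE 0.08; adjusted p = 0.976 in limma) and a 95% interval from -0.19 to 0.16. Hsp90b1 (GRP94), the ER form of HSP90, had -0.03, and the lectin chaperones Calr and Canx, which hold newly glycosylated proteins, had -0.13 and 0.03. Of the J-domain partners of BiP, Dnajb9 had -0.26 (SE 0.19), Dnajb11 0.02 and Dnajc3 0.17 (SE 0.08; adjusted p = 0.551 in limma). The exchange factor Hyou1 had 0.03, Sdf2l1, which works with BiP, -0.01, the stress-induced secreted factor Manf 0.12 and the prolyl isomerase Fkbp11 -0.03.

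Creld2, an ER protein induced by stress, was the chaperone group's member with the largest log2 fold, and 1 array set it. It was at 9.17, 9.25, 9.53 and 9.32 in Control and at 10.57, 9.48, 9.31 and 9.44 in Sca1-HGAL arrays. Replicate 1 of Sca1-HGAL stood 1.03 above the next highest array, and the other 3 lay within the Control range. The log2 fold was 0.38 (SE 0.24; adjusted p = 0.663 in limma), and 0.09 without that array.

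The disulfide isomerases, which form and shuffle the disulfide bonds of secreted proteins such as antibodies, included the member with the largest log2 fold. Txndc5 (ERp46) was at 9.10, 9.39, 9.36 and 9.39 in Control and at 9.99, 10.03, 9.32 and 9.69 in Sca1-HGAL arrays. Replicates 1, 2 and 4 of Sca1-HGAL lay above all Control arrays and replicate 3 lay among them. The means were 9.31 ± 0.14 (SD, n = 4) and 9.76 ± 0.33 (SD, n = 4). The log2 fold of Txndc5 was 0.45 (SE 0.15; adjusted p = 0.374 in limma). Over the leave-one-out fits it ranged from 0.36 to 0.60.

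Pdia4 (ERp72) was read by 2 probe sets, which differed in the size of the log2 fold. The brighter one was at 11.69, 11.79, 12.07 and 12.05 in Control and at 12.72, 12.01, 11.91 and 12.08 in Sca1-HGAL arrays, with a log2 fold of 0.28 (SE 0.17; adjusted p = 0.640 in limma). The other was at 8.07, 8.005, 7.95 and 8.22 in Control and at 9.40, 8.83, 8.38 and 8.29 in Sca1-HGAL arrays, with a log2 fold of 0.66 (SE 0.21; adjusted p = 0.349 in limma). On the brighter probe set the groups overlapped and on the other they were separated. Replicate 1 of Sca1-HGAL was the highest array on both, and without it the log2 folds were 0.10 and 0.44. Pdia4 as a whole was therefore read unevenly, and its dimmer probe set was described after its values were seen.

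Pdia6 was at 8.98, 9.33, 9.30 and 9.16 in Control and at 9.17, 9.06, 9.34 and 9.23 in Sca1-HGAL arrays, which gave a difference of 0.01 (SE 0.09; adjusted p = 0.986 in limma). Pdia3, the isomerase that works with Calr and Canx, had -0.15 (SE 0.15; adjusted p = 0.801 in limma). The 4 isomerases thus had 3 positive log2 folds and 1 negative, with a median of 0.15.

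Of the genes for entry into the ER, Ssr1 was the single member whose groups did not overlap. Ssr1 encodes the alpha subunit of the translocon-associated protein complex. It was at 10.64, 10.77, 10.80 and 10.33 in Control and at 11.04, 10.91, 10.88 and 10.96 in Sca1-HGAL arrays. The smallest gap between the groups was from 10.80 to 10.88, and Control replicate 4 was the lowest array. The means were 10.63 ± 0.21 (SD, n = 4) and 10.95 ± 0.07 (SD, n = 4). The log2 fold of Ssr1 was 0.31 (SE 0.10; adjusted p = 0.355 in limma). Without Control replicate 4 it was 0.21.

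Sec61b, a small subunit of the translocon channel, was read by 3 probe sets that did not agree in sign. The brightest was at 8.20, 8.33, 8.39 and 7.92 in Control and at 7.60, 7.98, 8.19 and 7.79 in Sca1-HGAL arrays. Its difference was -0.32 (SE 0.14; adjusted p = 0.504 in limma). In the 8 fits that leave out 1 array, its unadjusted p was under 0.05 in 2, against 8 each for Sdc1, Txndc5 and Ssr1. With the probe sets averaged the log2 fold of Sec61b was -0.09. The other 2 probe sets had -0.02 (SE 0.07) and 0.08 (SE 0.17), and the last had a mean level under log2 6 in both groups. All 3 carry the same transcript accessions in the platform annotation, so which of them reads Sec61b best was not tested. Sec11c, a catalytic subunit of the signal peptidase, had 0.17 (SE 0.09; adjusted p = 0.587 in limma).

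The 7 genes of ER-associated degradation, which returns misfolded proteins to the cytosol for destruction, were the group with the narrowest span of log2 folds, from -0.08 to 0.14. The membrane factors Derl1, Derl2 and Derl3 had 0.01, -0.07 and -0.08. Derl3, which is induced in secretory cells, varied most within the groups, from 7.68 to 8.82 in Control and from 7.64 to 8.69 in Sca1-HGAL arrays. The mannose-trimming factors Edem1 and Edem2 had -0.03 and -0.02, the ligase partner Sel1l 0.06 and Herpud1, a stress-induced adaptor of the degradation complex, 0.14 (SE 0.07; adjusted p = 0.554 in limma). No gene of this group had an unadjusted limma p under 0.05.

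The 8 members that held the ERSE had a median log2 fold of -0.002, from -0.13 for Calr to 0.38 for Creld2, with 4 positive and 4 negative. None of the 8 had an unadjusted limma p under 0.05. The 22 members with a window and no ERSE match had a median of -0.03, from -0.43 to 0.45. Both medians are within 0.05 of the 0.015 over all probe sets.

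Some arrays held the highest or lowest value for a larger share of the members than of all probe sets. The arrays named were picked after these counts were seen, and members may vary together, so they are not independent. Over the 8 arrays, the range of a member had a median of 0.45 on the log2 scale, from 0.15 for Sel1l to 1.82 for Prdm1, against a median of 0.35 over all probe sets. Sca1-HGAL replicate 1 was the highest of the 8 arrays for 15 of the 35 members, 42.9%, and for 14.7% of all probe sets. These were Prdm1, Canx, Manf, Creld2, Pdia4, Ssr1, Sec11c, Derl1, Derl2, Edem1, Edem2, Sel1l, Ern1, Atf6 and Atf4. Sca1-HGAL replicate 2 was the lowest for 10 members, 28.6%, against 11.3% of all probe sets, among them Xbp1, Irf4, Hspa5, Hsp90b1, Dnajb9, Calr and Pdia3. Control replicate 3 was the highest for 9 members, 25.7%, against 11.0% of all probe sets. The median deviation of the members from their own means was 0.11 on Sca1-HGAL replicate 1 and -0.07 on replicate 2, and lay between -0.04 and 0.06 on the other 6 arrays.

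**Figure D4:**
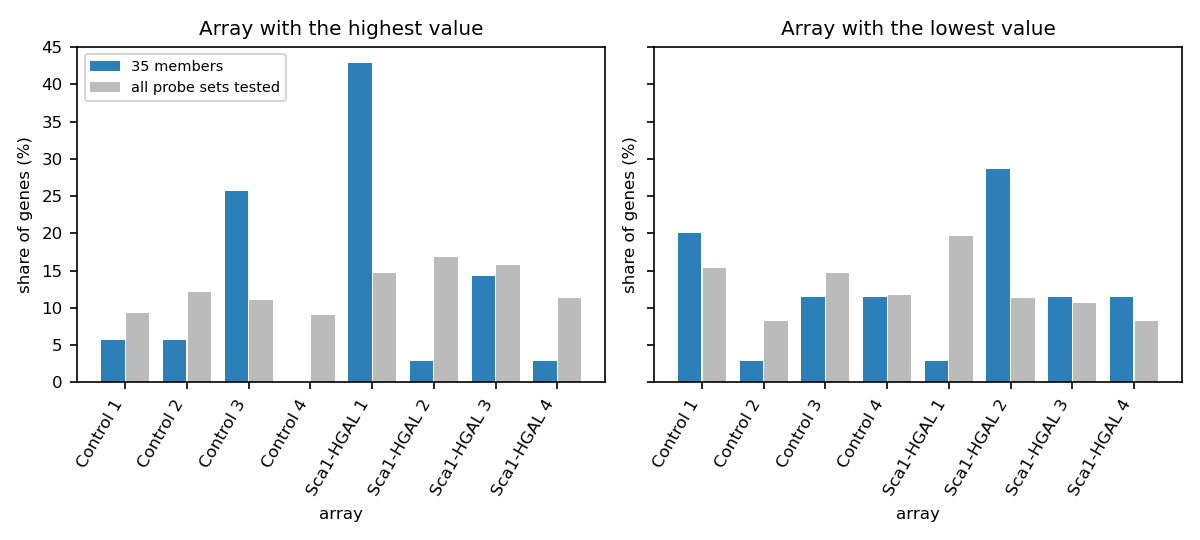
Share of the 35 members (blue) and of all probe sets tested (grey) for which each array has the highest (left) or the lowest (right) of the 8 values, in percent. Sca1-HGAL replicate 1 holds the highest value for 42.9% of the members and replicate 2 the lowest for 28.6%.

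On the same array, other genes of antibody secretion were also highest, and these were picked after their values were seen. Creb3l2, a membrane-bound transcription factor of secretory cells, was at 9.60 against 8.42 on the next array. Jchain, the joining chain of secreted IgA and IgM, was at 10.20 against 9.57, and Mzb1, a chaperone of antibody-making cells, at 11.37 against 10.90. Spcs3, a signal peptidase subunit, was at 10.45 against 9.96. Of 90 further genes of the pathway, 33 were highest on this array, 36.7%, again against 14.7% of all probe sets. Of the other plasma cell genes measured, Cd28, Pou2af1, Tnfrsf13b, Eaf2, Cd9 and Prg2 were also highest there. The surface genes Slamf7, at 9.49, and Sdc1, at 7.17, lay below every Control array, and Tnfrsf17, at 6.59, lay within the Control range. The antibody heavy chain genes were not highest there. Igha, the IgA constant region, was at 11.32 on this array and from 10.44 to 12.24 over all arrays. Ighg3, that of IgG3, was second lowest of the 8 arrays there, at 9.41. Ighm, that of IgM, was second lowest on its brightest probe set, at 11.10. On the other probe sets of Ighm this array lay within the range of the others, at 11.09 (10.92 to 11.36) and 10.54 (10.45 to 10.75). Markers of other cell types also differed on this array. All 6 neutrophil markers measured were highest there, and their summed intensity was 1782, against 540 to 1094 on the other Sca1-HGAL arrays and 471 to 849 on Control arrays. That of 5 T cell markers, of 6 listed, was 2156, against 724 to 1613 and 967 to 1381, with 4 of the 5 highest there. The 6 macrophage and monocyte markers did not go one way. Their sum was 2603, against 1665 to 2496 and 1663 to 2381, with Cd68 and Lyz2 highest there, at 10.23 and 8.78, and C1qb and Csf1r lowest of the 8 arrays, at 8.09 and 7.34. The 5 plasmacytoid dendritic cell markers measured, of cells that carry B220 and a large ER, had their lowest sum there, 1034, against 1058 to 1150 and 1156 to 1621. The 5 NK cell markers summed to 537 there, within the Control range of 523 to 647. Among these lists, 1 neutrophil and 2 NK cell markers had a mean under log2 6, and no value of the table is at 0. The part of these cells in the members' values was not tested.

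**Figure D5:**
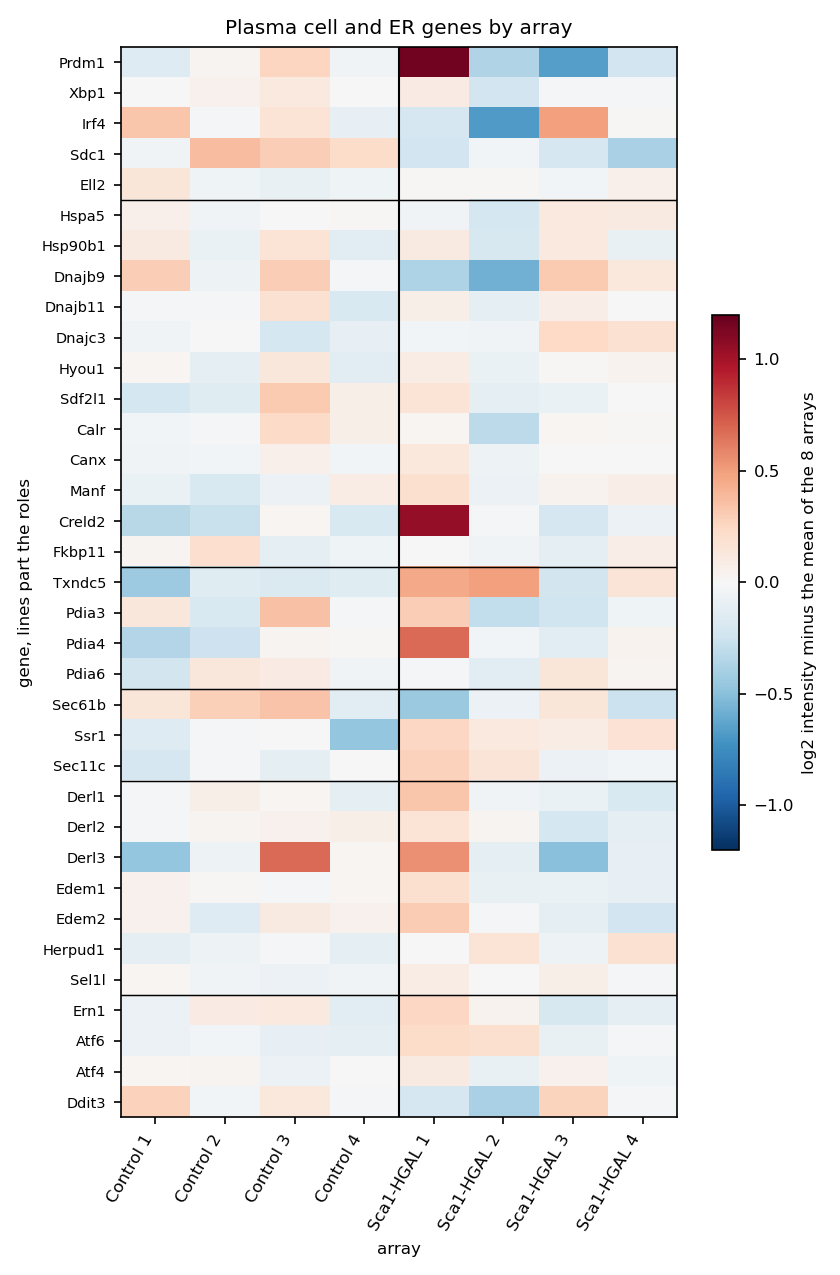
Log2 intensity of each member (rows, by role) on each of the 8 arrays (columns) minus its mean over the arrays, from blue (lower) to red (higher). Prdm1 and Creld2 are reddest on Sca1-HGAL replicate 1, and Irf4 and Dnajb9 bluest on Sca1-HGAL replicate 2.

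The other genes of the pathway were likewise read against all probe sets. Of 97 listed, 90 were measured and 0 passed limma at an adjusted p under 0.05. At an unadjusted p under 0.05 there were 5 on the higher and 9 on the lower side, 5.56% and 10.0%, where all probe sets gave 5.53% and 4.06%. Their median log2 fold was -0.01. Without Control replicates 2 and 4 the counts were 2 and 7, which are 2.22% and 7.78% of the 90, where all probe sets gave 4.93% and 3.15%.

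Among 10 other plasma cell genes measured, Slamf7, a surface receptor of plasma cells that other lymphocytes carry too, differed by -0.64 on the log2 scale (SE 0.14; adjusted p = 0.163 in limma). It was at 9.86, 10.11, 10.20 and 10.24 in Control and at 9.49, 9.16, 9.83 and 9.39 in Sca1-HGAL arrays, with no overlap. Without Sca1-HGAL replicate 3 it was -0.76 (SE 0.11) and passed limma (adjusted p = 0.0452). All 5 plasmacytoid dendritic cell markers and 4 of the 5 NK cell markers had negative log2 folds, with Prf1 at 0.12. The largest in size were -0.68 for Siglech and -0.83 for Ccr9, whose groups did not overlap, and -0.77 for Gzma, whose groups did. None of these 3 passed limma (adjusted p = 0.342, 0.294 and 0.272). At an unadjusted limma p under 0.05, 2 of the 5 plasmacytoid dendritic cell markers and 2 of the 5 NK cell markers were lower. The macrophage and monocyte markers were split, 3 positive and 3 negative. Among them Adgre1 was higher with no overlap, at 1.01 (adjusted p = 0.122 in limma). All 6 neutrophil markers had positive log2 folds, 3 of them at an unadjusted limma p under 0.05. Of these 6, Elane alone was separated, at 0.40 (adjusted p = 0.314 in limma). Over all probe sets, 5.53% were higher and 4.06% lower at an unadjusted limma p under 0.05. Those separated were 3.15% upward and 2.3% downward. The part of these cells in the values of Slamf7 was not tested. Prg2 was higher with no overlap, at 0.21 (adjusted p = 0.318 in limma), but dim, with means of 5.88 in Control and 6.09 in Sca1-HGAL arrays. Eaf2 had -0.23 with overlapping groups. Of the 10 genes of the B-cell programme that plasma cells keep low, 8 had a negative log2 fold, of which Spib at -0.003 and Id3 at -0.001 are close to 0. Over all probe sets 56.1% were positive. At an unadjusted limma p under 0.05, 1 of the 10 was lower and 1 higher, 10% each, where all probe sets gave 4.06% and 5.53%. Fcer2a (CD23) had -0.42 (SE 0.10; adjusted p = 0.225 in limma), the class II transactivator Ciita 0.14 and Ets1 -0.12, while Pax5, which holds the B-cell identity, had -0.06.

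The ER machinery beyond the members spanned small differences. Its counts stand beside 5.53% of all probe sets higher and 4.06% lower at an unadjusted limma p under 0.05. Of 21 entry and glycosylation genes, 1 had an unadjusted limma p under 0.05 on each side, 4.76% each. These were Srp9 at 0.20 and Sec11a at -0.17, with Sec62 next at -0.17. A dimmer probe set of Srp9 went the other way, at -0.08 (SE 0.08). Of 17 folding and oxidation genes, 1 was under this p on each side, 5.88% each, the cargo receptor Lman1 at 0.20 and Dnajc1 at -0.20. Of 13 degradation genes, Edem3 at -0.17 and Selenos at -0.16 were on the lower side, 15.4%, and none on the higher. Of 7 stress signalling genes, the protease Mbtps1, which cuts Atf6, had -0.13, Bak1 -0.22 and Creb3l2 0.50 (SE 0.31). Of 12 targets of ATF4 and CHOP, the amino acid transporter chain Slc3a2 had -0.23, the serine enzyme Psat1 -0.31 and Chac1 0.17, with a median of -0.03 over the list. None of these passed limma over all probe sets (adjusted p from 0.330 upward).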

How the data were processed

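The deposited values are probe set intensities from RMA, a method named in the submitters' processing notes that subtracts background, equalises the arrays and combines the probes of a set. Its version and the build are not given in the sources. Values were on a linear scale, from 4.94 to 24302, and log2 was taken with no pseudocount and no filter. Equalising arrays removes any shift that most genes share. No pair of arrays shared more than 0.06% of equal values. Of 34760 rows, 21640 had 1 gene symbol in the platform annotation, 1321 had several and 11799 were not listed there. Groups and replicate numbers come from the sample titles. The 21640 were fitted with limma 3.58.1 in R 4.3.3 (lmFit, eBayes, 2 groups, two-sided, Benjamini-Hochberg over all of them). The fit was tried on simulated data with added differences larger than that of any member. That trial does not tell how often differences of the members' size would be found. The replicate numbers were not taken to pair the samples. Deviations of same-numbered arrays correlated from -0.16 to 0.05. This cannot exclude a pairing, since arrays of different numbers were not compared.

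The members and lists were chosen with earlier results of these data known. Values in every array are given for the regulators, the sensors, Hspa5, members with an unadjusted p under 0.05 or separated groups, and the 3 members with the largest and the smallest differences. For the other lists up to 3 genes each were planned, and further genes were named after their values were seen. The alternatives were a repeated quantile normalisation, median centring, a filter on dim probe sets, array weights, the replicate block, another variance prior, averaging the probe sets that share a gene, all rows, and leaving out arrays.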

Additional observations from a re-analysis of the deposited data

Results flagged for a closer look

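Over the members' probe sets, 76 groups of 4 values were checked for an array that stood apart from its 3 group mates, and 6 were found where chance alone gives about 1 in 20, or 3.8. Sca1-HGAL replicate 1 was the highest for Creld2 at 10.57 (others 9.31 to 9.48), for Edem1 at 11.09 (others 10.79 to 10.82) and for the dimmest probe set of Sec61b at 5.25 (others 4.50 to 4.59). Sca1-HGAL replicate 2 was the lowest for Calr at 11.49 (others 11.82 to 11.83). Control replicate 3 was the highest for Canx at 12.01 (others 11.90 to 11.91), and Control replicate 1 the lowest for Txndc5 at 9.10 (others 9.36 to 9.39).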

How the results depend on the processing

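No member passed limma at an adjusted p under 0.05 in any of the 17 alternative settings, 8 of which leave out 1 array. Of 595 member values under these settings, 547 kept their sign, and the 48 that turned belong to 16 members with log2 folds of at most 0.19 in size. With the replicate block, 4 members and 11 other pathway genes had an unadjusted p under 0.05, against 4 and 14 without it, where 8.44% and 9.59% of all probe sets did, and 0 members or pathway genes passed the adjusted threshold with it. After a repeated quantile normalisation 8 members had an unadjusted p under 0.05, 22.9% against 9.39% of all probe sets, adding Dnajc3, Sec11c, Herpud1 and Atf6. Averaging the probe sets that share a gene gave 2 members with separated groups, moved Sec61b from -0.319 to -0.088, no longer under an unadjusted p of 0.05, and brought Pdia4 under it at 0.473. With every row tested Sec61b was not under it either. Without the 2 arrays with high Xist, 3 members were separated, 8.57% against 17.7% of all probe sets, and 9 pathway genes had an unadjusted p under 0.05. Leaving out single arrays gave 3 to 10 members with an unadjusted p under 0.05, 1 to 4 separated members and 6 to 17 pathway genes, while all probe sets under that p ranged from 7.24% to 11.9% and separated ones from 7.65% to 11.8%. The 10, 28.6% against 11.0% of all probe sets, were without Sca1-HGAL replicate 3, and included Irf4, Dnajb9, Sec11c, Herpud1, Atf6 and Ddit3. Separated members numbered 4 without Control replicate 1 or Sca1-HGAL replicate 1 or 3, and 2 without Control replicate 3 or 4 or Sca1-HGAL replicate 2. Pathway genes numbered 7, 9 and 8 without Control replicates 1, 2 and 3, and 8 and 6 without Sca1-HGAL replicates 2 and 4. Of the pathway genes, Slamf7 alone passed the adjusted threshold in a fit without 1 array, Sca1-HGAL replicate 3. The causes were not tested.

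The log2 fold turned in sign for Hspa5 (0.012) and Sdf2l1 (0.005) after a repeated quantile normalisation, for Atf4 (-0.006) with median centring, and for Hspa5 (0.015), Derl1 (-0.063) and Atf4 (-0.023) with array weights. Without the arrays with high Xist it turned for Ell2 (-0.014), Dnajb11 (-0.075), Hyou1 (-0.065), Fkbp11 (0.025) and Derl1 (-0.001). Leaving out single arrays, it ranged from -0.438 to 0.167 for Prdm1, -0.384 to 0.006 for Irf4, 0.00 to 0.077 for Ell2, -0.054 to 0.054 for Hspa5, -0.080 to 0.028 for Hsp90b1, -0.039 to 0.082 for Dnajb11, -0.003 to 0.083 for Hyou1 and -0.087 to 0.089 for Sdf2l1. It ranged from -0.008 to 0.053 for Canx, -0.075 to 0.030 for Fkbp11, -0.059 to 0.060 for Pdia6, -0.096 to 0.075 for Derl1, -0.281 to 0.129 for Derl3, -0.131 to 0.048 for Edem2, -0.089 to 0.059 for Ern1 and -0.029 to 0.036 for Atf4. Of the 19 members that kept their sign, 11 moved by over 1.5 times: Xbp1 (-0.133 to -0.024), Dnajb9 (-0.403 to -0.105), Calr (-0.160 to -0.042), Manf (0.077 to 0.171), Creld2 (0.092 to 0.510), Pdia3 (-0.272 to -0.055), Pdia4 (0.103 to 0.372), Sec11c (0.101 to 0.218), Derl2 (-0.134 to -0.008), Edem1 (-0.105 to -0.007) and Ddit3 (-0.290 to -0.073). Background correction and scan batches were not run, since the table holds summarised values and the labels give no batch.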

Other observations

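Stress elements also lay in promoter windows of other genes of the pathway. Of 78 such genes with a window, the ERSE was found in Ero1b, which reoxidises the disulfide isomerases, and Syvn1, the ligase of the degradation complex. Their log2 folds were -0.08 (SE 0.11) and 0.05 (SE 0.06). The letters TGATGCAA, an amino acid response element read by ATF4, lay in 5 of them, against 1.03% of all gene symbols with a window. These were Atf3, Chac1, Slc7a11, Nupr1 and Vldlr. All 5 are in the list of ATF4 and CHOP targets. Their log2 folds were -0.48, 0.17, 0.04, -0.05 and 0.06. Among the members this element lay in Herpud1 alone, which also held the ERSE-II.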
